A study of Mus musculus with 34 samples.

Results

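The comparison set coronal brain fractions 1 to 3 against fractions 4 to 6 of a single mouse and asked which transcripts differed sharply across the border between fraction 3 and fraction 4. The mouse, mouse 1 of the labels, was a male of the strain C57BL/6J at 3 days after birth, and no other allele or treatment is named for it. Each fraction pooled 100 coronal slices of 5 µm, so that it held a slab 500 µm wide through the whole brain, and its RNA was hybridised to 1 Agilent mouse array with a single dye. These 6 arrays are part of 34, which also cover coronal fractions 7 to 15 of the same brain, 8 horizontal fractions of a second male of that strain and age, and 11 sagittal fractions of another one. The fractions were chosen by position alone. Of 43199 probes with deposited values, the 33448 that were well above background on at least 2 of the 6 arrays were kept. Of the kept probes, 395 were well above background only in fractions 1 to 3 and 272 only in fractions 4 to 6. The kept probes stood for 15715 named genes, each represented by its brightest probe.

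Values are log2 normalised signals, in which 0 is the 75th percentile of all signals on that array. Differences are the mean of fractions 4 to 6 minus the mean of fractions 1 to 3, and a negative difference marks a lower signal in fractions 4 to 6. The 3 arrays of a side are neighbouring positions in 1 brain and not repeated animals, so every SE and p-value below measures the spread between positions. A gene was called free of overlap when all 3 values of one side lay beyond all 3 of the other, and its gap is the distance between the nearest values of the sides. In such bulk fractions, fewer cells of a type and less RNA per cell cannot be told apart.

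By way of background, the Hox clusters give the spinal cord and hindbrain their positional identity along the body axis, and genes nearer the 5′ end of a cluster usually have their anterior limit further back. The cerebellum forms from the anterior hindbrain, and in the first days after birth its outer layer is full of dividing granule cell precursors, which proliferate in response to Sonic hedgehog from Purkinje cells. Otx2 marks the midbrain side and Gbx2 the hindbrain side of the border between these regions in the embryo. The Emx and Dlx genes belong to the telencephalon, which becomes the cortex, the hippocampus and the basal ganglia.

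The labels do not say from which end the coronal fractions are counted. On average, Hox genes and most cerebellar genes were higher in fractions 1 to 3. Most listed midbrain, dopamine neuron and telencephalic genes were higher in fractions 4 to 6. Hindbrain against midbrain therefore names only a portion of what differed. Moreover, the genes that define the embryonic border did not separate the sides. En1, En2, Otx2 and Gbx2 all overlapped between them, as given further on.

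No probe passed an adjusted p of 0.05 in limma, in either direction, and the smallest adjusted p was 0.0653. At an unadjusted p under 0.05, 7884 probes (23.6%) passed, 3599 of them lower (10.8%) and 4285 higher (12.8%) in fractions 4 to 6. With a prior that followed mean signal (limma-trend), 683 probes were called lower (2.04%) and 662 higher (1.98%), which over genes gave 479 (3.05%) and 357 (2.27%). Since the planned test made no call, genes are described below by their values and by overlap, and no gene is said to have passed.

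Non-overlap alone was common. In fractions 4 to 6, 2971 genes (18.9%) were lower without overlap and 3121 genes (19.9%) were higher without overlap, and these shares are the background against which each gene list below is read. The median absolute difference of the probes without overlap was 0.440, and 57.7% of them differed by less than 0.5. A gap above 1 was far less common: it was found in 74 genes lower (0.471%) and 32 genes higher (0.204%) in fractions 4 to 6. A gap above 2 was found in 11 genes lower (0.07%) and 9 higher (0.0573%). Over probes, 5289 were lower (15.8%) and 6027 higher (18%) without overlap, and 118 were lower (0.353%) and 62 higher (0.185%) with a gap above 1. That total of 180 became 715 when fraction 3 was left out and 478 when fraction 4 was left out, the 2 fractions that adjoin the border. It was 212 to 267 without fraction 1, 2, 5 or 6. Leaving out a fraction cannot narrow a gap, so the total could not fall.

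Fraction 1 stood somewhat apart. It had the fewest spots well above background, 32468 of 59305, against 33392 to 36406 in the other 5 fractions, and the lowest 75th percentile of signal, 8.28 on the log2 scale against 8.81 to 9.07. No spot was saturated. All 6 arrays lay on the same slide, so the slide did not divide the sides.

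The Hox genes had the largest differences towards fractions 1 to 3. Of 39 Hox genes on the array, 24 were kept. Of these, 18 were lower in fractions 4 to 6 without overlap and 0 were higher, and 13 had a gap above 1, with a median difference of -3.11 (range -7.13 to -0.39) against a median of 0.015 over all genes. Limma called 0 of them and limma-trend 12. Hoxb7 read 3.84, 3.45 and 0.48 in fractions 1, 2 and 3 and -3.05, -5.47 and -5.11 in fractions 4, 5 and 6. The sides were separated by 3.52 and their means by -7.13 (SE 1.07, limma adjusted p = 0.0695), and among fractions 4 to 6 the gene was well above background only in 1 array. The same holds for Hoxb8 and Hoxc6, so the sizes of these differences, and their order, rest partly on values near background. Hoxc6 read 0.92, 2.15 and 0.33 and then -4.54, -6.23 and -5.06, a difference of -6.41 (SE 0.60, limma adjusted p = 0.0670). The nearest values of its sides were those of fractions 3 and 4, a drop of 4.87. Hoxb8 read 1.26, 1.43 and -1.55 and then -4.89, -6.64 and -7.26, a difference of -6.65 (SE 0.98). Hoxb6 read 4.62, 4.23 and 2.22 and then -0.47, -3.06 and -2.97, a difference of -5.85 (SE 0.92). For Hoxb7, Hoxc6, Hoxb8 and Hoxb6, fraction 3 was the lowest of its own side and fraction 4 the highest of the other. The values thus descended over more than 1 border. Hoxb9 and Hoxd8 were not well above background in any of fractions 4 to 6, which made them at least 3.23-fold and at least 2.17-fold lower there.

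The place of the drop differed between Hox groups that sit at different positions in their clusters. Paralogue groups 5 to 9 were represented by 12 genes, and fraction 4 lay below the mean of fractions 1 to 3 by a median difference of -3.27 (range -5.68 to -0.44). In 7 of these 12 genes the largest drop between neighbouring fractions was from 3 to 4, in 3 (Hoxa7, Hoxa9 and Hoxb9) it was from 2 to 3, and in 2 (Hoxa5 and Hoxb5) it was from 4 to 5. Paralogue groups 1 to 4 were represented by 11 genes, and in them fraction 4 was still close to fractions 1 to 3, with a median difference of -0.80 (range -1.78 to -0.08). In 10 of these 11 the largest drop was from fraction 4 to fraction 5.

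Single genes show the same order. Hoxa3 read 1.77, 2.44 and 2.28 in fractions 1 to 3, then 1.57 in fraction 4 and -0.74 and -0.37 in fractions 5 and 6. Hoxb4 read 1.24, 2.59 and 2.00, then 0.58, and then -2.97 and -1.92. Hoxb5 read 3.37, 4.93 and 3.80, then 1.5, and then -2.25 and -1.20. In each of these 3, fraction 4 was lower than fractions 1 to 3 but nearer to their mean than to fractions 5 and 6. Hoxa2, of a group with a more anterior limit, overlapped: it read -0.93, -0.45 and -0.40 and then -0.81, -2.82 and -2.26. Hoxd3 overlapped as well, with -1.45, -0.82 and -0.79 against -1.10, -3.74 and -4.34. In these genes the drop lay 1 fraction further on than in Hoxc6.

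**Figure D1:**
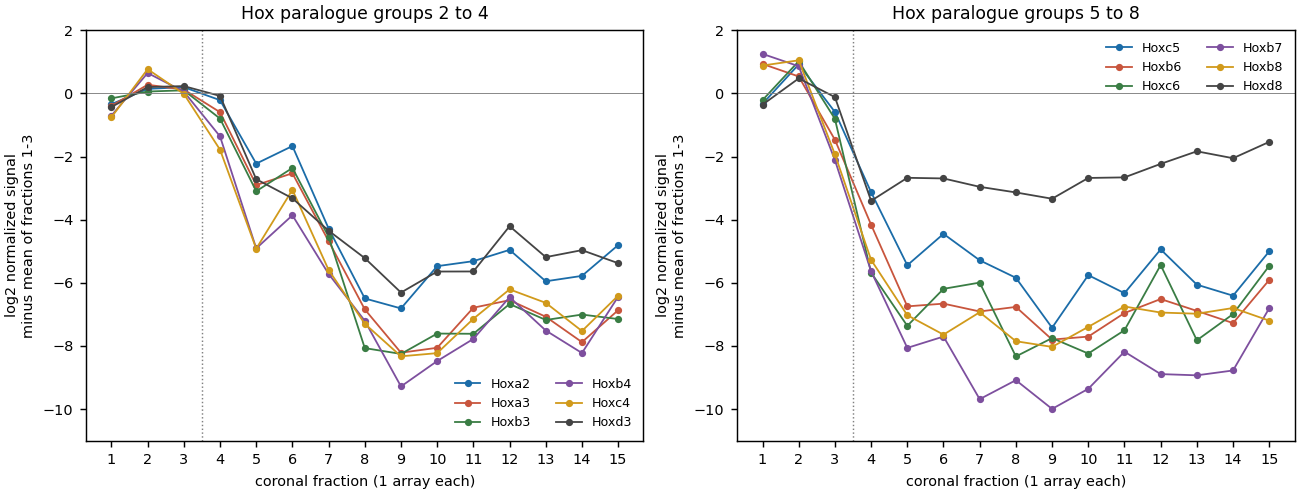
Log2 signal of some of the kept Hox genes over coronal fractions 1 to 15, each gene minus its own mean of fractions 1 to 3. Drawn are Hoxa2, Hoxa3, Hoxb3, Hoxb4, Hoxc4 and Hoxd3 of paralogue groups 2 to 4. Of groups 5 to 8, Hoxc5, Hoxb6, Hoxc6, Hoxb7, Hoxb8 and Hoxd8 are drawn. The dotted line marks the border between fractions 3 and 4. In fraction 4 most drawn genes of groups 5 to 8 have left the level of fractions 1 to 3. The drawn genes of groups 2 to 4 are nearer to it and drop before fraction 5. Hoxa5 and Hoxb5, kept but not drawn, had their largest drop from fraction 4 to 5, and Hoxa7, also not drawn, from 2 to 3.

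The promoter of Hoxb8 is shown because this gene is among those with the widest separation and a promoter could be matched. The sequence is from RefSeq (GRCm38.p6, chr11:96281655-96281954, plus strand), from 250 bases before to 50 after the start of the gene. Capitals mark CCAAT and TTTGAA on either strand.
Hoxb8: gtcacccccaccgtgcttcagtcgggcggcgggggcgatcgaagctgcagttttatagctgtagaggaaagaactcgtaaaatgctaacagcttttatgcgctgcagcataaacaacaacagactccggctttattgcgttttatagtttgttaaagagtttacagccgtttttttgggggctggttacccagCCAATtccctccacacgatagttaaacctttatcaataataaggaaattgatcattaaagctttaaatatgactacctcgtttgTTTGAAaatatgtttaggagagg
It holds 1 CCAAT and 1 TTTGAA. Across all 32851 promoters of this length, 37.4% held CCAAT, 17.9% held TTTGAA and 5.29% held TAATTA, the core of many homeodomain sites. Of the 13 kept Hox genes with a promoter in the set, 9 (69.2%) held CCAAT, 2 (15.4%) held TTTGAA and 0 held TAATTA, against 41.1%, 20.2% and 6.12% of all 27025 genes with one. A gene with several listed starts was counted if any of them held the letters.

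Outside the Hox clusters, the genes with the largest separations towards fractions 1 to 3 included several that are best known from tissues other than brain. Mybpc3, a myosin-binding protein of heart muscle, read -1.15, -1.14 and -1.77 and then -3.66, -5.67 and -5.91, a difference of -3.73 (SE 0.61, limma adjusted p = 0.0695). Mymx, a membrane peptide for myoblast fusion, read -1.58, -1.92 and -2.20 and then -4.28, -6.47 and -5.57, a difference of -3.54 (SE 0.54). Both were well above background on 1 array of fractions 4 to 6. Markers of skeletal muscle as a whole did not go with them: of 11 muscle genes kept, 0 were lower without overlap, their summed log2 signal ran from 2.23 to 2.48 in fractions 1 to 3 and from 1.96 to 4.52 in fractions 4 to 6, and Ckm, Mylpf and Myog were not kept. Kcnv2, a modifier subunit of potassium channels, read -4.25, -4.39 and -4.74 in fractions 1 to 3. It was not well above background in any of fractions 4 to 6, which made it at least 1.59-fold lower there. Gcg, the precursor of glucagon and of GLP-1, which neurons of the caudal brainstem also make, read -4.28, -0.79 and -2.13 and then -5.26, -5.57 and -4.34. Its values did not overlap, but fraction 1 was only 0.07 above fraction 6, and the difference of -2.66 had an SE of 0.89 (limma adjusted p = 0.153).

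Cerebellar genes formed the next group. Of 13 Purkinje cell genes, 10 were lower without overlap in fractions 4 to 6 and 0 higher, 2 of them with a gap above 1, with a median of -0.92. Limma called 0 and limma-trend 6. Pcp2, a G protein modulator that is highly restricted to Purkinje cells within the brain, read 6.19, 5.72 and 4.50 and then 2.41, 2.08 and 1.01, a difference of -3.63 (SE 0.54, limma adjusted p = 0.0695). Its values descended over all 6 fractions, with the largest drop at the border. Skor2, a transcriptional repressor of Purkinje cell differentiation, read -1.07, -1.02 and -1.80 and then -2.70, -4.53 and -5.49, with 1 array of fractions 4 to 6 well above background. Itpr1, the receptor that releases calcium from stores, read 3.99, 3.57 and 3.14 and then 1.72, 1.97 and 2.15, with its largest change at the border. Car8, a partner of that receptor, read 1.92, 1.83 and 0.96 and then 0.21, 0.08 and -0.60, and its sides were nearer to each other.

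Of 16 genes of granule cells and their precursors, 12 were lower without overlap and 0 higher, 6 with a gap above 1, with a median of -1.14. Limma called 0 and limma-trend 10. Atoh1, the transcription factor that specifies granule cell precursors, read 2.06, 1.02 and 0.33 and then -1.29, -1.98 and -3.23, a difference of -3.30 (SE 0.62, limma adjusted p = 0.0746). Neurod1, which acts as these cells differentiate, read 1.71, 1.25 and 0.76 and then -0.45, -0.59 and -0.65. Both were free of overlap, but Atoh1 went on descending within fractions 4 to 6 whereas Neurod1 stayed level there. Zic1, a zinc finger factor of the granule lineage, read 6.64, 6.77 and 6.65 and then 5.62, 5.42 and 5.38. It was flat on each side, and its difference of -1.21 carried an SE of 0.11 (limma adjusted p = 0.0653). Eomes, in the cerebellum a marker of unipolar brush cells, read 0.95, 1.33 and 1.55 and then -0.59, -0.46 and -0.87, a difference of -1.92 (SE 0.19). Not every granule gene behaved this way: Barhl1 read 2.27, 2.20 and 3.07 against 2.27, 2.09 and 1.96 and overlapped, and Etv1 was on average 0.43 higher in fractions 4 to 6.

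Cell cycle genes were lower as a group. Of 22 kept, 21 were lower without overlap and 0 higher, and 4 had a gap above 1, with a median of -1.40 (range -1.71 to -0.30). Limma called 0 and limma-trend 19. Plk1, a kinase of mitotic entry, read 3.53, 3.06 and 2.63 and then 1.35, 1.46 and 1.27, a difference of -1.71 (SE 0.23, limma adjusted p = 0.0695). Cdc20, an activator of the anaphase-promoting complex, read 4.26, 3.69 and 3.27 and then 2.22, 2.01 and 1.99. Ccnb1, a mitotic cyclin, read 3.20, 2.78 and 2.45 and then 1.40, 1.29 and 1.27. All 3 declined from fraction 1 to fraction 3, dropped at the border and were nearly level afterwards. Mki67, the proliferation antigen, had the same shape, with 4.30, 3.64 and 3.26 and then 2.28, 2.28 and 2.13. The exception was Pcna, the clamp of DNA polymerase, whose values of 4.91, 4.61 and 4.22 overlapped with 4.24, 4.25 and 4.36.

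Of 14 Hedgehog pathway genes, 11 were lower without overlap and 0 higher, 1 with a gap above 1, with a median of -0.69. Limma called 0 and limma-trend 7. The ligand Shh read -4.30, -3.67 and -3.78 and then -3.95, -4.24 and -4.64, so the sides overlapped. The receptor Ptch1, which is also a target of the pathway, read -0.17, -0.64 and -0.51 and then -0.78, -1.11 and -1.44, with a gap of 0.14. Gli1, the effector most widely used as a readout of the pathway, read 2.37, 2.08 and 1.58 and then 0.20, 0.12 and -0.31, a difference of -2.0 (SE 0.24, limma adjusted p = 0.0695). Gli2, which relays the signal upstream of Gli1, read -0.79, -1.27 and -1.85 and then -2.67, -3.34 and -4.15. Ccnd1, a cyclin that the pathway induces in granule precursors, read 4.16, 3.87 and 3.41 and then 2.82, 2.78 and 2.73. The effectors Gli1 and Gli2 were thus free of overlap and the ligand was not.

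**Figure D2:**
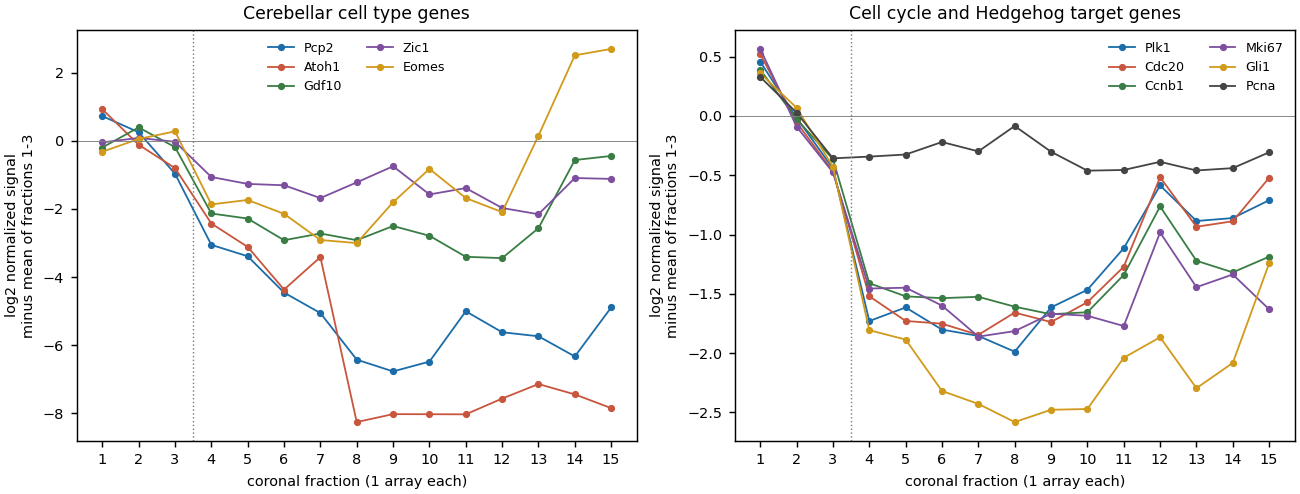
Log2 signal of granule, Purkinje, unipolar brush and Bergmann glia genes and of cell cycle and Hedgehog genes over coronal fractions 1 to 15, each gene minus its own mean of fractions 1 to 3. The dotted line marks the border between fractions 3 and 4, and Pcna alone among the cell cycle genes drawn stays near its starting level there.

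The promoters of 3 mitotic genes are shown because cell cycle genes are the list in which nearly every member was lower, and because CCAAT and TTTGAA are elements found in many mitotic promoters. They are from RefSeq (GRCm38.p6), each from 250 bases before to 50 after the start, with CCAAT and TTTGAA on either strand in capitals. Ccnb2 lies at chr9:70421505-70421804 on the minus strand, Plk1 at chr7:122159185-122159484 on the plus strand and Cdc20 at chr4:118437294-118437593 on the minus strand.
Ccnb2: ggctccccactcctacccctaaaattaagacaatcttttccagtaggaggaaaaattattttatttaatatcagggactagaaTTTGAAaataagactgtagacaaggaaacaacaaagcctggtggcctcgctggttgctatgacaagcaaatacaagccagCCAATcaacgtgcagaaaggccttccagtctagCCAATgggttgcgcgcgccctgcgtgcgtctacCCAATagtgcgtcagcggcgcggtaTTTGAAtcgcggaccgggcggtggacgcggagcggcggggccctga
Plk1: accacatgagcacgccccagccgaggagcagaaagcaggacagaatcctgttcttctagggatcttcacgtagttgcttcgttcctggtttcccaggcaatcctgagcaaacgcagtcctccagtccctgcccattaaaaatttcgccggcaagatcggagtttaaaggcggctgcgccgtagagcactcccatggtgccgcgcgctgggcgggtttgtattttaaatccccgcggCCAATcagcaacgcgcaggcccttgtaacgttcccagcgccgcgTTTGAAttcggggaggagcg
Cdc20: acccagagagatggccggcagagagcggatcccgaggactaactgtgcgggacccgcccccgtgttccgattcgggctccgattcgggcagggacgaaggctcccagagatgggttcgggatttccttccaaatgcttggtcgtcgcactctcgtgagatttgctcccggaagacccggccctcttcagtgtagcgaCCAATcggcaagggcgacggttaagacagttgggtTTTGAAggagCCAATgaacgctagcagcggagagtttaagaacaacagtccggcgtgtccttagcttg
Ccnb2 held 3 CCAAT and 2 TTTGAA, Cdc20 held 2 and 1, and Plk1 held 1 of each. Of 19 cell cycle genes with a promoter in the set, 18 (94.7%) held CCAAT and 10 (52.6%) held TTTGAA, against 41.1% and 20.2% of all genes with a promoter of that length. Ccnb2 itself, a mitotic cyclin, read 3.38, 3.02 and 2.67 and then 1.69, 1.59 and 1.38.

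Glial genes were mixed. Of 15 astrocyte genes, 8 were lower without overlap and 1 higher, with a median of -0.32. Gdf10, a growth factor used as a marker of Bergmann glia in the cerebellum, read 2.66, 3.25 and 2.67 and then 0.73, 0.58 and -0.06, a difference of -2.45 (SE 0.27, limma adjusted p = 0.0695). Gfap, the intermediate filament of astrocytes, read 3.15, 3.41 and 3.09 and then 1.94, 1.62 and 2.23. Fabp7, a fatty acid binding protein of radial glia and young astrocytes, was the member that went the other way. It read 7.01, 6.98 and 7.02 and then 7.82, 7.92 and 7.92, so that it was flat on each side and 0.88 higher in fractions 4 to 6 (SE 0.09, limma adjusted p = 0.0695). Of 16 myelin genes 1 was lower without overlap and 0 higher, of 8 oligodendrocyte precursor genes 1 and 0, and of 12 microglial genes 0 and 1. These shares are below the background of 18.9% and 19.9%. Cldn11, the claudin of myelin, read 3.65, 2.99 and 2.84 and then 2.21, 2.15 and 2.00, and P2ry12, a purine receptor of microglia, read -1.70, -1.45 and -1.88 and then -0.91, -0.83 and -0.82.

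Transcription factors of the hindbrain outside the Hox clusters did not move as a block. Of 13 kept, 3 were lower without overlap and 1 higher, with a median of -0.55. Ptf1a, which specifies inhibitory neurons of the cerebellum and dorsal hindbrain, read -0.85, 0.14 and -0.69 and then -2.69, -3.23 and -4.76, a difference of -3.10 (SE 0.57, limma adjusted p = 0.073). Tlx3, which specifies excitatory sensory relay neurons, read -1.71, -2.45 and -4.31 and then -4.52, -5.95 and -7.04, with a gap of 0.21. Lbx1, a factor of dorsal interneuron identity, read -2.43, -2.80 and -3.62 and then -4.34, -4.94 and -5.74. Tlx3 and Lbx1 descended through the 6 fractions, each well above background on 1 array of fractions 4 to 6, and Ptf1a was highest in fraction 2.

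Of 11 genes of the midbrain-hindbrain boundary, 1 was lower and 1 higher without overlap. En2 read 2.60, 2.72 and 3.06 and then 2.88, 1.87 and 1.15, and so dropped 1 to 2 fractions after the border. Otx2 read 2.68, 2.36 and 3.59 and then 3.25, 3.54 and 3.21, and Gbx2 read -1.01, 0.36 and 0.76 and then 0.15, -1.29 and -0.92. En1 was near background, well above it in 1 array of each side, and read -5.45, -5.63 and -4.56 and then -4.04, -5.18 and -5.29. Pax2, which is also used by inhibitory interneuron precursors of the cerebellum, was the member lower without overlap, with -3.25, -3.25 and -3.75 and then -4.30, -4.55 and -5.36. Fgf8, the signal of the embryonic boundary, descended from -0.42, -1.66 and -3.48 to -3.45, -4.19 and -5.00, and its sides met between fraction 3 and fraction 4.

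Among these 6 arrays, several genes of the telencephalon were well above background in fractions 4 to 6 alone. Emx1, a factor of cortical progenitors and neurons, read -6.53, -6.45 and -5.68 in fractions 1 to 3, where it was not well above background on any array, and -3.59, -1.39 and -0.05 in fractions 4 to 6. This made it at least 11.5-fold higher in fractions 4 to 6. Emx2, its relative, read -3.0, -1.91 and -1.52 in fractions 4 to 6 and was at least 7.87-fold higher. Both went on climbing after fraction 4.

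The Dlx genes specify inhibitory neurons of the ventral forebrain, and 2 of the 4 kept were free of overlap. Dlx2 read -6.92, -7.86 and -6.87 and then -4.02, -0.72 and 0.15, and was at least 12.7-fold higher in fractions 4 to 6. Dlx1 read -6.79, -6.49 and -6.21 and then -4.70, -1.38 and -0.05, and was at least 8.90-fold higher. Neither was well above background in fractions 1 to 3, and both were several log2 units lower in fraction 4 than in fractions 5 and 6. The other Dlx genes overlapped: Dlx5 read -6.56, -6.75 and -6.07 and then -6.82, -3.88 and -2.41, and Dlx6 read -4.44, -4.91 and -4.98 and then -4.95, -4.74 and -3.94. Nr2e1, a nuclear receptor of neural stem cells, read -6.52, -7.43 and -4.52 and then -2.29, -0.90 and 0.14, a difference of 5.14 (SE 0.91) that rests on 1 array well above background in fractions 1 to 3. Of 13 telencephalic inhibitory neuron genes, 5 were higher without overlap and 0 lower, 3 with a gap above 1, with a median of 1.49. That median was 0.48 without fraction 1, 0.34 with normexp background correction and 0.0086 over the 5 members well above background on all 6 arrays. Members such as Dlx1 and Dlx2 passed the filter on dim probes through fractions 4 to 6 alone.

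Of 20 cortical and hippocampal genes, 7 were higher without overlap and 0 lower, 3 with a gap above 1, with a median of 0.73. Some that overlapped hardly differed between the sides, such as Dkk3 (0.005) and Wfs1 (0.04). On average Neurod2 (-0.11) and Cck (-0.62) were lower in fractions 4 to 6 and the other 18 genes higher. In some of the others that overlapped, fraction 4 was still low. Fezf2, a factor of deep-layer projection neurons, read -6.57, -7.49 and -7.44 and then -6.87, -0.55 and -0.13, so that its jump came between fractions 4 and 5. Tbr1, another factor of early cortical neurons, read -4.14, -1.95 and -1.13 and then -1.51, 2.41 and 3.05. Lhx2, a selector gene of the cortex, was measured throughout, at 1.08, 1.40 and 2.21 and then 2.60, 3.33 and 3.87.

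The promoter of Dlx2 is shown as that of a forebrain gene not well above background in fractions 1 to 3. It is from RefSeq (GRCm38.p6, chr2:71546705-71547004, minus strand), from 250 bases before to 50 after the start, with CCAAT in capitals on either strand.
Dlx2: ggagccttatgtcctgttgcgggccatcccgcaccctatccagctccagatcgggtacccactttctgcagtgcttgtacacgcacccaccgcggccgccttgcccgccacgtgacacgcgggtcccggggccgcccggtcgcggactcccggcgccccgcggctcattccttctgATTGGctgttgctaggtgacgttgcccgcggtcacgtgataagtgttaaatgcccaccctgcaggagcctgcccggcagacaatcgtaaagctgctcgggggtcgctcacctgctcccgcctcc
It held 1 CCAAT and 0 TTTGAA.

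Midbrain transcription factors were the other main group. Of 19 kept, 9 were higher without overlap and 1 lower, 5 with a gap above 1, with a median of 1.59. Limma called 0 and limma-trend 2. Pax7, of the dorsal midbrain, read -6.45, -5.64 and -3.34 and then -0.82, -0.63 and -0.67, a difference of 4.43 (SE 0.77, limma adjusted p = 0.0705). It was level across fractions 4 to 6, and well above background on 1 array of fractions 1 to 3. Gata3, which specifies inhibitory neurons of the midbrain and serotonergic neurons, read -4.03, -1.38 and 0.52 and then 2.00, 2.64 and 2.17. Tal1, which acts with the Gata factors, read -1.29, -0.00 and 1.31 and then 2.60, 2.79 and 2.60. Gata3 and Tal1 climbed through fractions 1 to 3 and were level after the border. Foxa2, of the ventral midline and of dopamine neurons, read -6.72, -3.70 and -3.03 and then -1.43, 0.07 and 0.75, a difference of 4.28 (SE 1.07). Foxa1, its relative, read -6.93, -3.15 and -2.64 and then -0.54, -0.38 and 1.38. Not every midbrain factor rose at the border. Pou4f1 read 1.56, 1.71 and 2.24 and then 1.44, 1.78 and 1.57. Lmx1a read -3.78, -0.97 and 1.01 and then 0.32, 0.06 and 0.83. Both overlapped and were highest in fraction 3. Pou4f2 and Dmbx1 overlapped as well, and Nkx2-2 was the member lower without overlap, with a difference of -0.21. Among genes of other roles, Atoh7, best known from retinal ganglion cells, read -3.92, -3.63 and -2.95 and then -0.05, -1.94 and -0.92. Its highest value was in fraction 4.

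**Figure D3:**
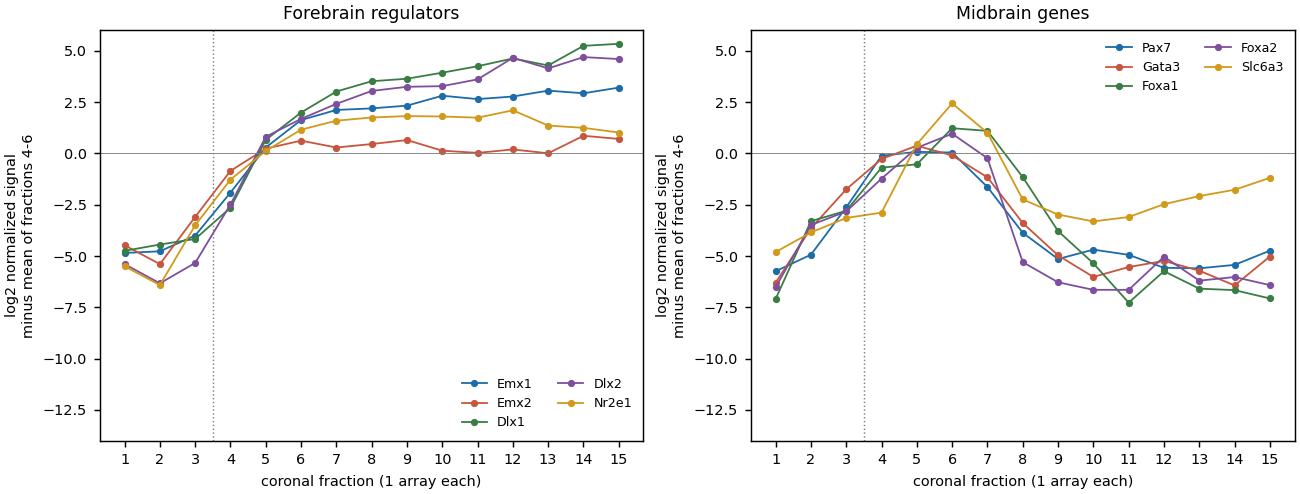
Log2 signal of telencephalic genes (Emx1, Emx2, Dlx1, Dlx2, Nr2e1) and of midbrain genes (Pax7, Gata3, Foxa1, Foxa2, Slc6a3) over coronal fractions 1 to 15, each gene minus its own mean of fractions 4 to 6. The dotted line marks the border between fractions 3 and 4. The telencephalic genes stay high in fractions 7 to 15, and the midbrain genes are highest in or near fractions 4 to 7.

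Among the monoamine neuron genes, the transmitter enzymes and transporters shown here were highest in different fractions. Dbh, which converts dopamine to noradrenaline, read -3.41, 1.08 and 1.97 and then 3.26, 0.69 and -1.45, with its highest value in fraction 4. Slc6a2, the noradrenaline transporter, read -6.57, -2.14 and 0.09 and then 1.92, -0.70 and -2.82, and also had its highest value in fraction 4. The sides overlapped for both, whereas Gal, a neuropeptide on the same list, was highest in fraction 2 and read 2.63, 3.08 and 2.01 and then 1.71, 1.39 and 1.35. Tph2, which makes serotonin in the brain, read -6.75, -4.67 and -2.12 and then -0.81, -0.66 and -2.48. Slc6a4, the serotonin transporter, read -4.91, -2.44 and -0.22 and then 1.31, 1.86 and -0.21, and Fev, the serotonergic factor, read -4.15, -3.88 and -2.53 and then -1.13, -0.84 and -2.79. All 3 serotonergic genes had their highest value among the 6 in fraction 5. Slc6a3, the dopamine transporter, read -3.92, -2.96 and -2.26 and then -2.0, 1.33 and 3.33, with its peak in fraction 6 and a difference of 3.94 (SE 1.33, limma adjusted p = 0.156). Nr4a2, a factor for dopamine neurons that other neurons use too, read -0.72, 0.44 and 0.57 and then 2.07, 3.20 and 3.18. Th, which all catecholamine neurons share, read -0.05, 0.83 and 1.41 and then 2.37, 2.43 and 3.42. Of 10 dopamine genes, 6 were higher without overlap and 0 lower, with a median of 2.12. The others overlapped: Drd2 (difference -0.13), Ret (0.17), Pitx3 (1.15) and Aldh1a1 (1.25). Of 8 serotonin genes 3 were higher and 0 lower, with a median of 2.11. These 3 were Slc18a2, also on the dopamine list, Gata3, also among the midbrain factors, and Slc6a4, with a gap of 0.0036. Tph2 and Fev overlapped. Of 5 noradrenaline genes 1 was lower and 0 higher without overlap.

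**Figure D4:**
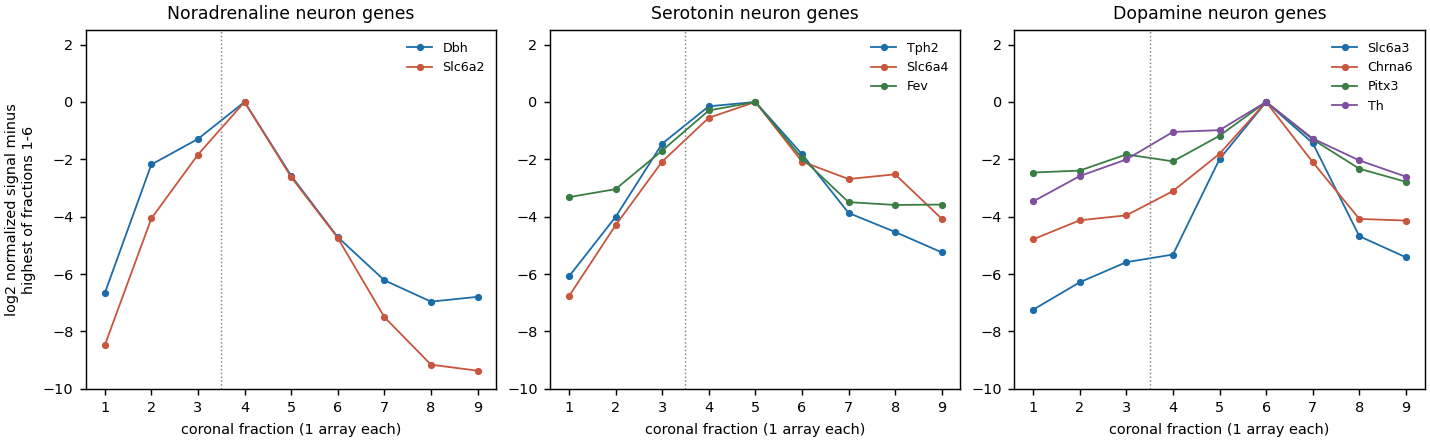
Log2 signal of noradrenergic (Dbh, Slc6a2), serotonergic (Tph2, Slc6a4, Fev) and dopaminergic (Slc6a3, Chrna6, Pitx3, Th) genes over coronal fractions 1 to 9, each gene minus its own highest value in fractions 1 to 6. Dbh and Slc6a2 are highest in fraction 4, the serotonergic genes drawn in fraction 5 and Slc6a3 in fraction 6.

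General neuronal genes separated less. Of 5 genes of glutamatergic and GABAergic transmission, 4 were higher without overlap, with a median of 0.51. Gad2, which makes GABA, read 1.66, 2.45 and 2.62 and then 3.23, 3.12 and 2.81. Slc17a7, a vesicular glutamate transporter, read -5.33, -4.14 and -3.65 and then -3.35, -1.97 and -1.12. Of 8 cholinergic genes 0 were free of overlap in either direction, and of 6 glycine genes 1 was higher.

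Genes of tissues that could be carried along with the brain were examined alongside. The summed log2 signal of choroid plexus genes ran 1.77, 6.63 and 8.51 and then 7.50, 5.86 and 5.95, with 0 of 12 genes free of overlap. Ttr, the defining choroid plexus gene, read -0.99, 6.48 and 8.33 and then 7.32, 5.66 and 5.69, so fraction 1 stood alone. Red blood cell genes summed to 5.00, 4.08 and 3.39 and then 2.85, 2.78 and 2.98, and all 4 kept were lower without overlap (Epb42 was not kept). Bone and cartilage genes summed to 2.33, 2.18 and 2.51 and then 1.1, 0.66 and 0.54, and 3 of 5 were lower without overlap. Among them Col2a1, the collagen of cartilage, read 2.12, 2.00 and 2.27 and then 0.74, 0.20 and 0.01 (difference -1.81, SE 0.21), whereas Ibsp, Bglap and Runx2 of bone were not kept. Meningeal genes summed to between 8.19 and 9.60 in fractions 1 to 3 and between 8.15 and 9.09 in fractions 4 to 6, with 2 of 15 lower without overlap, and endothelial genes had 5 of 13 lower, with a median of -0.27. Peripheral ganglion genes summed to between 0.17 and 0.55 and then between 0.39 and 1.25. Red blood cell, bone and cartilage signals were thus higher on the side where Hox and cerebellar genes were higher, and their part in the result was not tested.

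Genes of retinoic acid metabolism and signalling, a pathway that activates Hox genes in the embryo, had 5 of 12 members lower without overlap and 0 higher, with a median of -0.74. Cyp26b1, which degrades retinoic acid, read 5.21, 5.59 and 5.29 and then 4.72, 4.07 and 3.50. Dhrs3, which lowers its precursor retinal, read 3.92, 4.07 and 3.87 and then 2.97, 2.84 and 2.80, flat on each side. Among 6 Iroquois genes, 1 was higher without overlap: Irx6 read -4.41, -3.16 and -0.80 and then 0.79, 0.88 and 0.08. Of 22 Eph receptor and ephrin genes 4 were lower and 5 higher, near the background shares, and Epha3 read -1.75, -1.91 and -1.58 and then -1.21, -0.58 and -0.26.

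**Figure D5:**
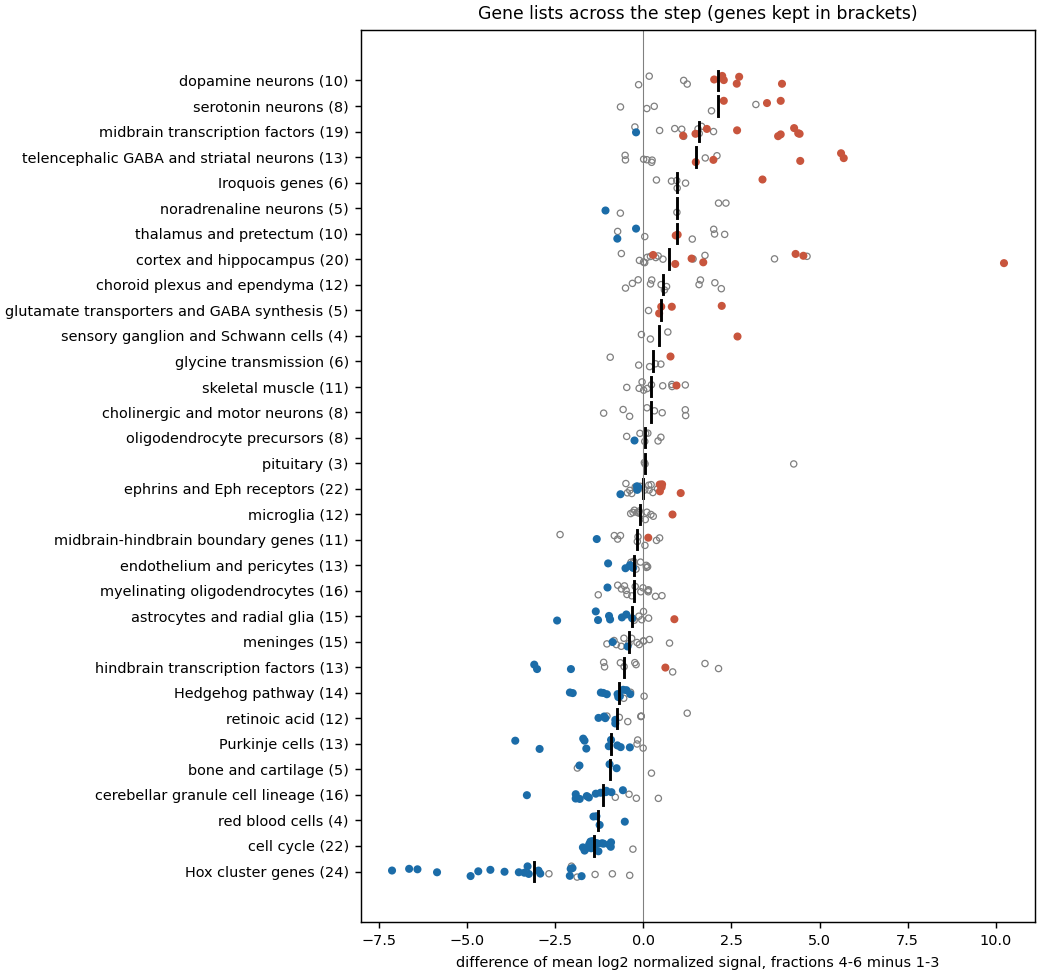
Difference between the mean log2 signal of fractions 4 to 6 and that of fractions 1 to 3 for each kept gene (dot) of each gene list (row). Filled dots are genes without overlap, blue for lower and red for higher in fractions 4 to 6, open grey dots are genes that overlap and the black bar is the median of the list, which is -3.11 for Hox genes and 1.59 for midbrain factors.

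Long noncoding RNA probes were free of overlap less often than all kept probes. Of 6205 kept, 636 (10.2%) were lower and 984 (15.9%) higher without overlap, against 15.8% and 18% of all probes. A gap above 1 was found in 11 and 8 of them, against 118 and 62 of all 33448 probes. Positions are those in the array files, on mm9. A_30_P01020836, on chromosome 15 from 102926581 to 102932542 on the reverse strand, read -2.63, -1.64 and -2.67 and then -3.64, -5.85 and -5.85. A_30_P01029053, on the same chromosome from 102920547 to 102933472, read -3.56, -3.10 and -3.59 and then -4.94, -6.79 and -6.23. These transcripts overlap on the chromosome that carries the Hoxc cluster, and as in Hox groups 1 to 4 their larger drop was from fraction 4 to fraction 5. A_30_P01028861 lies on chromosome 5 from 67865049 to 67868521 on the forward strand. It was not well above background in fractions 1 to 3 and read -4.08, -3.70 and -3.77 in fractions 4 to 6. This made it at least 2.55-fold higher there. It was level across fractions 4 to 6.

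The levels beyond fraction 6 differed by group. Of the 438 genes that were lower without overlap by more than 1, 376 had their coronal peak in fractions 1 to 3 and 62 in fractions 7 to 15. Of the 210 genes higher by more than 1, 75 had it in fractions 4 to 6 and 135 further on, in fractions 7 to 15. Emx1 stayed between 0.44 and 1.53 (median 1.09) in fractions 7 to 15, above all of fractions 1 to 6. Pax7, by contrast, ran from -6.31 to -2.35 (median -5.65) in fractions 7 to 15. Hoxc6 ran from -7.20 to -4.30 (median -6.37), well above background on 3 of 9 arrays. Plk1 ran from 1.09 to 2.49 (median 1.96), above its level in fractions 4 to 6 in part, and Eomes, which dividing cortical progenitors use as well, reached 3.97. A gene that was low in fractions 4 to 6 was therefore not always low in the rest of the brain.

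The share of genes with their largest change at the border differed between the directions. Of the 438 lower genes, 252 (57.5%) had their largest change between neighbouring fractions at the border, 73 (16.7%) between fractions 1 and 2 and 51 (11.6%) between 4 and 5. Of the 210 higher genes, 69 (32.9%) had it at the border and 71 (33.8%) between fractions 1 and 2. Over all kept probes, in either direction, it fell at the border in 22.6% and between fractions 1 and 2 in 37.5%. The share of the higher genes between fractions 1 and 2 was thus near that of all probes. Choosing genes without overlap favours the border, so the shares of the 438 and the 210 genes are a description. With the fraction number as a covariate, the remaining step kept its sign in 407 (92.9%) of the lower and 167 (79.5%) of the higher genes. Its median was -0.565 in the former, against -1.349 without the covariate, and 0.376 in the latter, against 1.455. The same choice of genes favours a kept sign, so these counts are no test of a step. In that limma fit, 57 of the lower and 18 of the higher genes had an unadjusted p under 0.05. Its smallest adjusted p over all kept probes was 0.999. For lists, the median step beside the covariate was -1.86 for Hox genes, -0.74 for granule genes, -0.71 for cell cycle genes, -0.34 for Purkinje genes and 0.77 for serotonin genes. Among the lists in which it changed sign were midbrain factors (-0.13), dopamine genes (-0.03), cortical and hippocampal genes (-0.09) and telencephalic inhibitory neuron genes (-0.12), so that for these lists the difference was not separated from a gradual change along the fractions.

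The border between fractions 3 and 4 was not the largest of the coronal series. Over all kept probes the median absolute difference between these neighbours was 0.209, against 0.271 between fractions 1 and 2 and 0.328 between fractions 14 and 15. Between fractions 3 and 4, 1405 probes (4.20%) differed by more than 1, of which 641 were lower and 764 higher in fraction 4.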

How the data were processed

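RNA of 6 coronal fractions of 1 mouse was hybridised to single-colour Agilent mouse arrays, scanned and read with Agilent Feature Extraction 10.10.1.1 (protocol GE1_1010_Sep10, probe positions on mm9). The authors deposited both the scanner files, with signal intensity and background flags per spot, and a table of log2 values. For 99.92% of the spots checked, the deposited number equalled log2 of the scanner's processed signal, shifted by the same amount across an array, to within 0.02. That shift differed from the 75th percentile of log2 signals by at most 0.0122. Horizontal, sagittal and later coronal fractions served as description only.

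Probes with the well-above-background flag on at least 2 of the 6 arrays were kept, and fractions 4 to 6 were compared with 1 to 3 on the deposited log2 values with limma 3.58.1 (lmFit, eBayes, Benjamini-Hochberg over all 33448 probes) in R 4.3.3. Counts, lists and figures were made in Python 3.11.15 (numpy 2.4.6, pandas 2.3.3). The fit was tested on simulated data. Of 55681 probes, 26582 matched 1 of 20145 symbols through the RefSeq gene table (GRCm38.p6), used for names and promoters only. Each gene took its brightest probe. Where no array of a side was well above background, the difference is given as a lower bound against the lowest signal well above background on each array. The number of arrays limits the precision. Some genes that these choices would name are not reported here.

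The genes, the 32 lists and the comparison itself were chosen with earlier results of these data known. The rule for named genes was the 12 with the largest difference in each direction past the adjusted p and without overlap, and the 5 with the largest jump. It was met by 0 genes, so it was used without the p, a choice made after the values were seen, beside members of the lists. Alternatives were scanner processed signals, normexp with offset 50, quantile and median scaling, no filter, a filter on all 6 arrays, limma-trend, the mean of all probes of a gene, the fraction number as a covariate and leaving out each fraction.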

Additional observations from a re-analysis of the deposited data

Results flagged for a closer look

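Coronal fractions 7 to 15 or horizontal fractions were checked for a sample far from the others, and 4 of 17 groups held one. In each of these 4 it was fraction 7, the neighbour of fraction 6. The cutoff corresponds to about 1 in 20 for repeated samples. Fractions are ordered positions in a brain, so that rate does not apply here. Atoh1 read -2.28 in fraction 7, against -7.12 to -6.0 in fractions 8 to 15. Pax7 read -2.35 there, against -6.31 to -4.58. Foxa2 read -0.44, against -6.85 to -5.24. Slc6a3 read 1.89, against -2.43 to -0.30.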

How the results depend on the processing

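The number of probes past an adjusted p of 0.05 was 0 with the scanner processed signal, array median scaling, no filter on dim probes and the fraction number as a covariate. It was 5 with quantile normalization (3 lower, 2 higher), 551 with normexp (344 and 207), 920 with the filter on all 6 arrays (488 and 432 of 28141) and 1345 with limma-trend (683 and 662). Leaving out 1 fraction gave 0 to 769: 769 without fraction 3, 1 without fraction 4 and 0 otherwise. Probes without overlap stayed within 1.5 times 11316 in each alternative. Those with a gap above 1 numbered 56 with normexp, 97 with the filter on all 6 arrays and 212 to 715 with 1 fraction left out. In the lists, normexp gave medians of -1.78 for Hox, 0.84 for midbrain, 1.19 for serotonin, 0.34 for telencephalic inhibitory and -0.51 for bone genes. The filter on all 6 arrays gave 1.12 for serotonin and 0.0086 for telencephalic inhibitory genes. The mean of all probes of a gene gave 0.0904 for Eph genes. With the covariate the medians became -1.86 (Hox), -0.74 (granule), -0.34 (Purkinje), 0.77 (serotonin), -0.11 (endothelium), -1.38 (bone), -0.23 (red blood cells), -0.71 (cell cycle) and -0.23 (Hedgehog). They changed sign for choroid plexus (-1.42), muscle (-0.81), cholinergic (-1.07), oligodendrocyte precursor (-0.18), boundary (0.13), microglial (0.0685), midbrain (-0.13), dopamine (-0.033), cortical (-0.0915), thalamic (-0.68), telencephalic inhibitory (-0.12) and ganglion (-0.34) genes. With 1 fraction left out, medians ran from 0.48 to 1.64 for telencephalic inhibitory, -0.35 to -0.11 for endothelial and -1.22 to -0.78 for bone genes. Among single genes, the covariate reversed Hoxa9 (0.13), Hoxc12 (0.40), Etv1 (-0.70), Pcna (0.13), Ptch1 (0.083), Tlx3 (0.82), En2 (0.13), Otx2 (-0.19), Fgf8 (1.09), Tbr1 (-1.95), Dlx5 (-1.59), Dlx6 (-0.12), Sp9 (-0.34), Lhx2 (-0.10), Foxa1 (-0.27), Foxa2 (-0.13), Dmbx1 (-0.30), Lmx1a (-2.32), Slc6a3 (-1.30), Chrna6 (-0.31), Pitx3 (-0.88), Slc17a7 (-0.71), Ttr (-4.15) and A_30_P01019818 (0.65), and normexp reversed En1 (-0.047) and Dlx6 (-0.048). With 1 fraction left out, Dbh ran from -0.69 to 2.10, Ttr from -1.18 to 3.48, Dlx6 from -0.064 to 0.44 and En1 from -0.0245 to 0.70. Except where a setting itself removes fractions or probes, the cause was not tested. Signals near background limit the lowest values. No paired analysis was possible because the sides share no fraction number.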

Other observations

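Of 10 thalamic genes, 2 were lower and 2 higher without overlap in fractions 4 to 6, with a median of 0.95. Pituitary genes, of which Cga, Tshb, Gh and Prl were not kept, summed to 0.19, 0.76 and 1.18 in fractions 1 to 3 and to 1.65, 1.05 and 0.52 in fractions 4 to 6, with 0 of 3 free of overlap. Spata4, a gene of spermatogenesis, was not well above background in fractions 1 to 3 and read -4.67, -4.41 and -4.35 in fractions 4 to 6, which made it at least 1.65-fold higher there.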
